A study of Arabidopsis thaliana with 6 samples.

Results

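The genes described here are the 9 core genes that write and erase DNA methylation in Arabidopsis thaliana: the DNA methyltransferases MET1 (AT5G49160), CMT2 (AT4G19020), CMT3 (AT1G69770) and DRM2 (AT5G14620), the chromatin remodeller DDM1 (AT5G66750), and the DNA glycosylases ROS1 (AT2G36490), DME (AT5G04560), DML2 (AT3G10010) and DML3 (AT4G34060). They were taken by gene identifier, and all 9 were found among the 28775 features that each of the 6 libraries lists. The libraries were made from polyadenylated RNA of the accession Can-0, which comes from the Canary Islands, and of Col-0, from which the reference genome was read. Each accession gave 1 library of floral buds at stage 12, grown on soil, 1 of 11-day-old seedlings, grown on soil, and 1 of 10-day-old roots, grown on plates. All plants had 16 hours of light and 8 hours of dark at 20 C, the labels name no mutation or treatment, and the labels call every library biological replicate 1 without saying how many plants went into it. No group therefore had a replicate.

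Plants methylate cytosine in the sequence contexts CG, CHG and CHH, where H is any base but G. MET1 copies CG methylation onto the new strand after replication, CMT3 keeps CHG methylation in a loop with dimethylated histone H3 lysine 9, CMT2 acts mostly on CHH sites inside long heterochromatic transposons, and DRM2 is guided by small RNAs in RNA-directed DNA methylation. DDM1 moves nucleosomes so that the methyltransferases can reach heterochromatin. The glycosylases cut methylated cytosine out of DNA, after which base excision repair puts in an unmethylated base. ROS1, DML2 and DML3 are known from vegetative tissue. DME is known from the vegetative cell of pollen and from the central cell of the female gametophyte. In the central cell it sets imprinted expression. ROS1 is also known for a transcript level that falls in mutants that lose DNA methylation.

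The libraries were alike in depth, with about 21800000 to 22900000 mapped reads recovered from the steps of the deposited RPKM (reads of a gene divided by its length and by the mapped reads of the library), so that 1 read in a gene of 1 kb was worth 0.0437 to 0.0459 RPKM. Tissue markers lay where the labels place them. The 5 floral organ genes summed to 963 and 825 RPKM in the Can-0 and Col-0 floral buds and to at most 3.30 RPKM in any other library, and the 5 root genes to 211 and 184 RPKM in the Can-0 and Col-0 roots and to at most 27.1 RPKM elsewhere, nearly all of it from the iron transporter IRT1 in floral buds. In log2(RPKM + 1), SEP3, AP3, PI and AP1 of the flower list differed by 6.84 to 8.04 for floral buds over another tissue. CASP1, IRT1, PRP3 and PIN2 of the root list differed by -5.90 to -5.03 for another tissue against roots. RBCS1A, TGG1, LHCB2.1 and GOX1 of the shoot list differed by 8.25 to 9.90 for seedlings over roots. All of these had an adjusted p under 0.05 in limma. The 4 shoot genes summed to 2.70 and 16.5 RPKM in the Can-0 and Col-0 roots, against 3219.9 RPKM or more in every floral bud and seedling library. The 5 root genes summed to 0.320 and 0.233 RPKM in the Can-0 and Col-0 seedlings. By these markers the seedling libraries held little root RNA. In the labels both seedling libraries belong to run 33 and both root libraries to run 40, and the floral buds were sequenced apart, Can-0 in run 35 and Col-0 in run 36. Tissue and run, and for floral buds accession and run, cannot be told apart. Only the roots were grown on plates, so tissue and growth medium cannot be told apart in any comparison with roots.

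All 9 genes were above 1 RPKM in every library and passed the filter of at least 1 RPKM in at least 2 libraries. The members rested on 97 reads (DML3 in Col-0 root) to 2672 reads (ROS1 in Col-0 floral bud) per library, which gives counting errors of 10.2% down to 1.93%. The genes lie on chromosomes 1 to 5, none overlaps another annotated gene, and none has a near-identical copy elsewhere (95% identity over at least 50% of a transcript), so their reads had no second place of that kind to go. In RefSeq's TAIR10.1 annotation their exon unions hold 10 exons (DRM2) to 23 exons (CMT2), and the gene model lengths behind the deposited values ran from 2183 bases for DRM2 to 6978 bases for DME. RPKM is per length, so levels can be set side by side between the genes.

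CMT3 had the highest level of the 9 in 5 of the 6 libraries, at 16.1 RPKM in Can-0 floral bud, 22.9 and 19.0 RPKM in Can-0 and Col-0 seedling, and 23.9 and 21.6 RPKM in Can-0 and Col-0 root. In the Col-0 floral bud ROS1 stood above it, with 24.8 RPKM against 13.6 RPKM for CMT3. DML3 was the lowest member in 5 libraries, and DML2 was the lowest in the Can-0 root, at 1.48 RPKM. Many neighbours in the order did not differ beyond counting error. In the Can-0 floral bud DME (13.1 RPKM), ROS1 (12.9), CMT2 (12.7) and MET1 (12.6) had overlapping 95% counting intervals from 1 to the next, while in the Can-0 seedling the top 4 genes, CMT3, MET1, DME and CMT2, were each separated from the next.

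**Figure D1:**
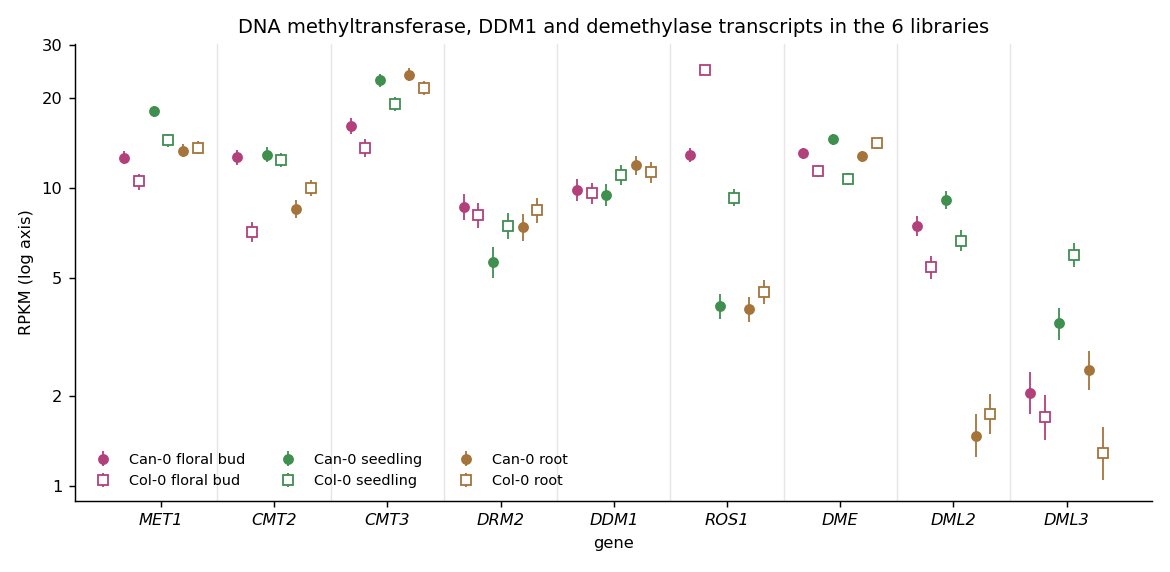
RPKM of each of the 9 genes in each library on a log axis, with 95% counting intervals from the recovered reads; filled circles are Can-0 and open squares Col-0, in the order floral bud, seedling, root. DDM1 and DME stay within a narrow band, DML2 falls below 2 RPKM in both root libraries, and ROS1 runs from 3.93 RPKM in Can-0 root to 24.8 RPKM in Col-0 floral bud.

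CMT3 was the methyltransferase that passed the threshold between tissues, an adjusted p under 0.05. Its level was 16.1 and 13.6 RPKM in the Can-0 and Col-0 floral buds, against 22.9 and 19.0 RPKM in the Can-0 and Col-0 seedlings and 23.9 and 21.6 RPKM in the Can-0 and Col-0 roots. Both floral bud libraries lay below all 4 others, with no overlap. On the log2(RPKM + 1) scale, on which all differences below are given, CMT3 was lower in floral buds by a difference of -0.47 ± 0.11 (SE) to seedlings (adjusted p = 0.0265, limma) and of -0.59 ± 0.11 to roots (adjusted p = 0.0104), while seedlings and roots differed by -0.12 ± 0.11 (adjusted p = 0.408). With 6 libraries these calls were fragile. The floral bud to seedling call did not pass when any 1 of the 6 libraries was left out (adjusted p 0.0580 to 0.140), and the floral bud to root call did not pass without either floral bud library or either root library; over all 18 alternatives the adjusted p ran from 0.00326 to 0.140 for the first and from 0.00311 to 0.0811 for the second.

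MET1, the CG maintenance enzyme, had 12.6 and 10.5 RPKM in the Can-0 and Col-0 floral buds, 18.0 and 14.4 RPKM in the Can-0 and Col-0 seedlings, and 13.3 and 13.6 RPKM in the Can-0 and Col-0 roots. Its highest value was the Can-0 seedling and its lowest the Col-0 floral bud. The difference of floral buds to seedlings was -0.45 ± 0.14 and missed the threshold (adjusted p = 0.0583, limma), with adjusted p from 0.00553 to 0.273 over 18 alternatives, 3 of which passed. Of 16 genes of DNA replication, 7 were lower and 0 higher in floral buds than in seedlings (9 had an unadjusted p under 0.05, and voom called 7). Their median was -0.39, against 0.27 over all tested genes, of which 12.0% were lower and 32.8% higher. The count depends on the scaling. With each library centred on its median 15 were lower and 0 higher, with a median of -0.88. Of all tested genes 26.5% were then lower and 16.3% higher, with a median of -0.21. Between floral buds and roots, where CMT3 was at -0.59, 4 were lower and 1 higher, with a median of 0.03. Of all tested genes 27.0% were lower and 30.3% higher in that comparison, with a median of 0.02. With median-centred libraries 6 of the list were lower and 0 higher, where 35.9% of all tested genes were lower and 25.6% higher. Between seedlings and roots 6 were higher and 0 lower, with a median of 0.33, where 18.5% of all tested genes were higher and 41.0% lower. With median-centred libraries 12 were higher and 0 lower, where 23.1% of all tested genes were higher and 29.5% lower. The replication licensing factor CDC6 was lower in floral buds than in seedlings by -0.93 ± 0.16 (adjusted p = 0.0125, limma), and PCNA1, the sliding clamp that holds the polymerase on DNA, was lower in floral buds than in roots by -0.82 ± 0.12 (adjusted p = 0.00483). RNR1, the large subunit of ribonucleotide reductase, and MCM6 of the replicative helicase were higher in seedlings than in roots, by 0.83 ± 0.10 and 0.64 ± 0.16 (adjusted p = 0.00301 and 0.0219). CDT1A, another licensing factor, went the other way and was higher in floral buds than in roots by 0.57 ± 0.14 (adjusted p = 0.0224). The CDT1A call was lost with each library centred on its median and with quantile normalization. Among these calls that of RNR1 passed without any 1 library. Those of CDC6, PCNA1 and CDT1A were lost without the Can-0 floral bud, among others (adjusted p up to 0.114, 0.0559 and 0.160). That of MCM6 was lost without any 1 of the root and seedling libraries (up to 0.140). The part of replicating cells in the MET1 and CMT3 levels was not tested. In bulk tissue, fewer cells of a type and less RNA per cell cannot be told apart.

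CMT2, the enzyme of heterochromatic CHH sites, had 12.7 and 7.11 RPKM in the Can-0 and Col-0 floral buds, 12.9 and 12.4 RPKM in the Can-0 and Col-0 seedlings, and 8.48 and 9.99 RPKM in the Can-0 and Col-0 roots. The Col-0 floral bud was the lowest library and the Can-0 floral bud stood with the seedlings. No tissue difference of CMT2 passed; the nearest was 0.42 ± 0.26 between seedlings and roots (adjusted p = 0.229, limma). DRM2, the enzyme of RNA-directed methylation, had 8.63 and 8.08 RPKM in the Can-0 and Col-0 floral buds, 5.63 and 7.45 RPKM in the Can-0 and Col-0 seedlings, and 7.38 and 8.41 RPKM in the Can-0 and Col-0 roots. Its difference of floral buds to seedlings was 0.32 ± 0.17 (adjusted p = 0.181) and turned to -0.16 once each library was centred on its median. DDM1, the remodeller, had the narrowest span of the 9, at 0.30 over the 6 libraries. It had 9.81 and 9.59 RPKM in the Can-0 and Col-0 floral buds, 9.44 and 11.0 RPKM in the Can-0 and Col-0 seedlings, and 11.9 and 11.3 RPKM in the Can-0 and Col-0 roots, and its tissue differences lay between -0.23 and -0.07 with none past the threshold.

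ROS1, the main vegetative demethylase, had the widest span, at 2.39. It had 12.9 and 24.8 RPKM in the Can-0 and Col-0 floral buds, 4.01 and 9.27 RPKM in the Can-0 and Col-0 seedlings, and 3.93 and 4.49 RPKM in the Can-0 and Col-0 roots. Both floral bud libraries were above all 4 others, and within each tissue Can-0 was below Col-0. ROS1 was higher in floral buds by 1.4 ± 0.26 over seedlings (adjusted p = 0.0141, limma) and by 1.86 ± 0.26 over roots (adjusted p = 0.00406), and seedlings and roots differed by 0.46 ± 0.26 (adjusted p = 0.185). The call against roots passed in 16 of 18 alternatives and was lost without the Can-0 floral bud (adjusted p = 0.0799) or without the Col-0 floral bud (adjusted p = 0.0964), the range over all alternatives being 0.00183 to 0.0964. The call against seedlings passed in 11 of 18 (adjusted p 0.00726 to 0.178). It was lost without either floral bud library, without the Can-0 seedling (adjusted p = 0.0598), with median-centred libraries (difference 0.91, adjusted p = 0.0553), with quantile normalization (difference 0.90, adjusted p = 0.0577), with no filter (adjusted p = 0.0713) and with the tissue term alone (adjusted p = 0.0631).

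The promoter windows of all 9 members were searched for the letters of E2F-type elements, the sites of a family of transcription factors known to act on replication genes. Whether such letters bear on the level of any member was not tested. The 8-letter motifs TTTCCCGC, TTTGGCGC, TTTCGCGC and TTTGCCGC were looked for on both strands from 250 bases before to 50 bases after each RefSeq gene start. Other forms of such elements were not looked for, so a member without a match may still hold one. The CMT2 window, for example, holds TTTGGCGG, which differs from TTTGGCGC in the last letter alone. How many of all windows hold that form was not counted. TTTCGCGC can share letters with its own reverse complement, and no match in a member overlapped another. Of the 9 members only CMT3 and ROS1 held a match to the motifs searched, 1 each. That is 22.2% of the windows against 1.76% of the 27443 windows of all protein-coding genes and 56.2% of the 16 replication genes. The ROS1 match began 30 bases before the annotated start and the CMT3 match 22 bases after it, inside the transcribed part. The stretches below are from RefSeq's TAIR10.1 assembly, which is Col-0 sequence, read 5′ to 3′ on the gene's strand with the match in capitals.
ROS1, chr2:15314819-15314848, minus strand: tccgtaaaactTTTCCCGCcaaccaaacga
CMT3, chr1:26253647-26253676, minus strand: aaacccatcacTTTGGCGCttatgtgacgc
ROS1, the whole 250 bases before its start, chr2:15314808-15315057, minus strand: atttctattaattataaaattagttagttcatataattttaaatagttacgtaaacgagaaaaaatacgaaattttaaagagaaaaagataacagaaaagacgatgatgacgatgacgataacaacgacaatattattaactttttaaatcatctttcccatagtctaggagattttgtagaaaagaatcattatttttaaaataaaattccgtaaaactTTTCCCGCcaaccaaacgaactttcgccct
TTTCCCGC was found in 0.798% of all windows and TTTGGCGC in 0.434%. The match is a description of these letters, and the Can-0 sequence was not used here.

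DML2, a vegetative glycosylase, was the member with the clearest difference between tissues. It had 7.45 and 5.41 RPKM in the Can-0 and Col-0 floral buds and 9.10 and 6.65 RPKM in the Can-0 and Col-0 seedlings, against 1.48 and 1.75 RPKM in the Can-0 and Col-0 roots. All 4 floral bud and seedling libraries were above both roots, with no overlap. DML2 was higher in floral buds than in roots by 1.49 ± 0.21 (adjusted p = 0.00413, limma) and in seedlings than in roots by 1.75 ± 0.21 (adjusted p = 0.00252). The seedling to root call passed in all 18 alternatives (adjusted p 0.00113 to 0.0321). The floral bud to root call passed in 16, and was lost without the Can-0 floral bud (adjusted p = 0.0828) or the Col-0 floral bud (adjusted p = 0.0636), within a range of 0.00173 to 0.0828. Floral buds and seedlings differed by -0.26 ± 0.21 (adjusted p = 0.365).

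DME, the glycosylase of the gametophytes, had 13.1 and 11.4 RPKM in the Can-0 and Col-0 floral buds, 14.5 and 10.7 RPKM in the Can-0 and Col-0 seedlings, and 12.8 and 14.1 RPKM in the Can-0 and Col-0 roots. The tissues overlapped fully: its highest value was the Can-0 seedling and its lowest the Col-0 seedling. Its 3 tissue differences lay between -0.13 and -0.02 with standard errors of 0.17, and none passed. The 5 pollen vegetative cell markers, by contrast, summed to 683 and 563 RPKM in the Can-0 and Col-0 floral buds and to at most 3.26 RPKM elsewhere, most of it from the pectin methylesterase VGD1, at 593 and 465 RPKM in the Can-0 and Col-0 floral buds. The 5 sperm cell markers summed to 40.5 and 20.2 RPKM in the Can-0 and Col-0 floral buds and to at most 1.59 RPKM elsewhere. MGH3 and GEX1 of the sperm list were higher in floral buds than in seedlings by 3.58 ± 0.32 and 3.32 ± 0.40 (adjusted p = 0.00210 and 0.00461, limma), and VEX1, AGL104 and AGL65 of the pollen list by 2.90 to 5.84 over seedlings or roots. SUC7 of the pollen list did not pass the filter and was listed at 0 in both floral buds. GEX2, HAP2 and DUO1 of the sperm list did not pass it either. GEX2 had 0.578 and 0.301 RPKM in the Can-0 and Col-0 floral buds, and 0.135 and 0.376 RPKM in the Can-0 and Col-0 seedlings. It has a near-identical copy, so its reads are uncertain. The share of the DME reads that came from pollen was not tested.

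DML3, the third of the vegetative glycosylases and the member of lowest level, had 2.06 and 1.71 RPKM in the Can-0 and Col-0 floral buds, 3.51 and 5.96 RPKM in the Can-0 and Col-0 seedlings, and 2.45 and 1.29 RPKM in the Can-0 and Col-0 roots. Both seedling libraries were above the 4 others. The difference of seedlings to roots was 0.99 ± 0.33 and that of floral buds to seedlings -0.96 ± 0.33, and both missed the threshold (adjusted p = 0.0549 and 0.0733, limma). Without the Can-0 seedling library both passed (adjusted p = 0.0192 and 0.0313), in ranges over 17 alternatives of 0.0192 to 0.295 and 0.0224 to 0.360.

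Counted together, 2 of the 9 members passed between floral buds and seedlings, ROS1 higher and CMT3 lower, against backgrounds of 32.8% of all 20830 tested genes higher and 12.0% lower. Between floral buds and roots 3 passed, ROS1 and DML2 higher and CMT3 lower, where 30.3% of all genes were higher and 27.0% lower. Between seedlings and roots 1 passed, DML2 higher, where 18.5% of all genes were higher and 41.0% lower. These shares of members are near or below the backgrounds, and as counts they are no result about the members. Their median differences were -0.26, 0.03 and 0.24 in the same order of comparisons, beside 0.27, 0.02 and -0.33 over all tested genes.

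The scaling matters for the small differences among them. Centring each library on its median moved the median of all tested genes to -0.21 between floral buds and seedlings, -0.19 between floral buds and roots and -0.06 between seedlings and roots, and the share of calls that were higher to 38.0%, 41.6% and 44.0%, where it had been 73.2%, 52.9% and 31.0%. Under that scaling 6 members were lower and 0 higher in floral buds than in seedlings, where 26.5% of all tested genes were lower and 16.3% higher: MET1 at -0.94, CMT2 at -0.86, CMT3 at -0.96, DDM1 at -0.55, DML2 at -0.74 and DML3 at -1.44. ROS1 and DML2 kept their direction against roots, at 1.65 and 1.28 for floral buds. The directions of CMT3, ROS1 and DML2 in the calls above were the same under every scaling tried, which were median centring, quantile normalization and leaving out the organelle genes.

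**Figure D2:**
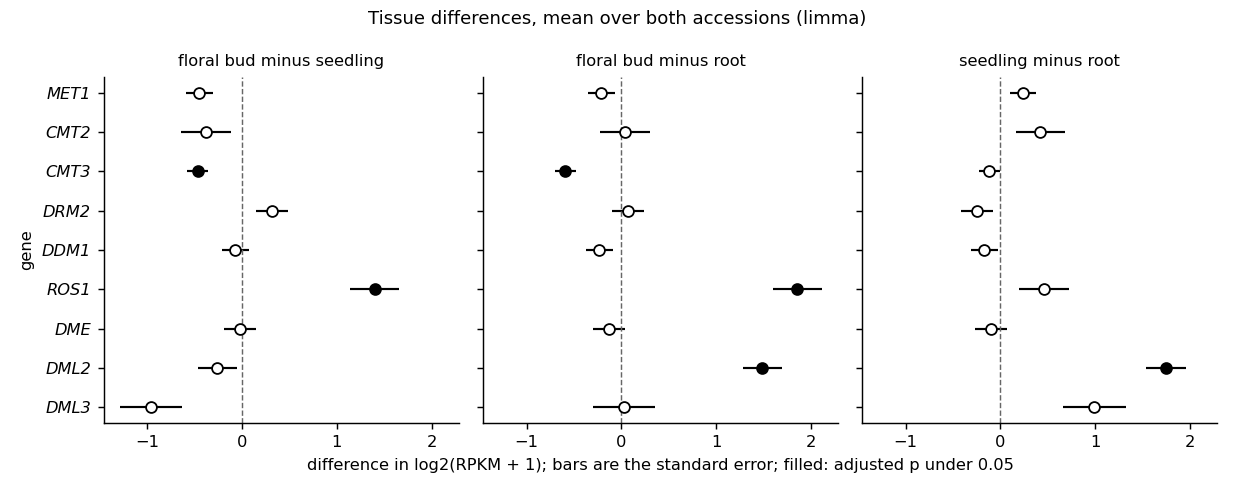
Difference in log2(RPKM + 1) between tissues for each gene, averaged over both accessions, with the standard error as bars and filled points for an adjusted p under 0.05 (limma). CMT3 lies at -0.47 and -0.59 in the comparisons with floral buds, ROS1 at 1.4 and 1.86, and DML2 at 1.49 and 1.75 in the comparisons with roots.

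The accessions were compared first as a mean over the 3 tissues. In limma 0 of the 9 members passed, where 0.403% of all tested genes were higher in Can-0 and 0.557% lower; 1 member, ROS1, had an unadjusted p under 0.05 (0.0243), and limma's voom on the recovered reads also called 0. ROS1 differed by -0.70 ± 0.21 (adjusted p = 0.223, range 0.129 to 1.00 over 20 alternatives). It was the only member below Col-0 in all 3 tissues, which held for 19.0% of all tested genes, and CMT3 was the only member above Col-0 in all 3, which held for 22.2%.

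Within a tissue there was 1 library of each accession, so no test of the accessions was possible and the intervals below cover counting error only. The sequence to which Can-0 reads were aligned was not stated. In every comparison of the accessions, differences in alignment and in transcript level therefore cannot be told apart. ROS1 stood at a Can-0 over Col-0 ratio of 0.519 in floral buds (95% interval 0.485 to 0.554), 0.432 in seedlings (0.385 to 0.486) and 0.875 in roots (0.766 to 1.00). The floral bud and seedling ratios lay well below the root ratio, and the interval of the root ratio does not reach into either. A difference of at least 1, with at least 1 RPKM in a library, was met by ROS1 in seedlings alone, at -1.04, and just missed in floral buds, at -0.90. That is 1 of 9 members in seedlings, where 4.23% of genes were that much lower in Can-0 and 4.78% higher, 0 of 9 in floral buds, where 3.63% were lower and 3.87% higher, and 0 of 9 in roots, where 4.42% were lower and 3.0% higher. In floral buds the 2 accessions also came from different runs.

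Every member but ROS1 and CMT3 had ratios on both sides of 1. For CMT2, DML3 and DME the intervals left out 1 on each side. CMT2 had a ratio of 1.78 (1.62 to 1.96) in floral buds, 1.04 (0.961 to 1.13) in seedlings and 0.849 (0.772 to 0.934) in roots, so that Can-0 was above Col-0 in floral buds and below it in roots. DML3 had 1.21 (0.949 to 1.54) in floral buds, 0.589 (0.503 to 0.689) in seedlings and 1.90 (1.48 to 2.45) in roots. DML2 had 1.38 (1.23 to 1.55) in floral buds and 1.37 (1.23 to 1.52) in seedlings. In roots it had 0.846 (0.671 to 1.06), an interval that held 1. CMT2, DML3 and DME thus had no single direction of the accessions across tissues beyond counting error.

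DME had a ratio of 1.14 (1.07 to 1.22) in floral buds, 1.36 (1.27 to 1.45) in seedlings and 0.905 (0.852 to 0.961) in roots. MET1 had 1.21 (1.12 to 1.31) in floral buds, 1.25 (1.17 to 1.34) in seedlings and 0.978 (0.910 to 1.05) in roots, and CMT3 1.18 (1.08 to 1.3), 1.2 (1.11 to 1.3) and 1.11 (1.03 to 1.19) in the same tissues. DRM2 and DDM1 were each lower in the Can-0 seedling, at 0.756 (0.643 to 0.887) and 0.856 (0.762 to 0.961), and had intervals that held 1 in floral buds and roots. The counting interval left out 1 for 6 members in floral buds, 8 in seedlings and 5 in roots. The same held for 61.6% of all genes in floral buds, 62.4% in seedlings and 58.0% in roots, so in each of these 3 pairs of libraries most genes differed beyond counting error, and such a count says little of the members.

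**Figure D3:**
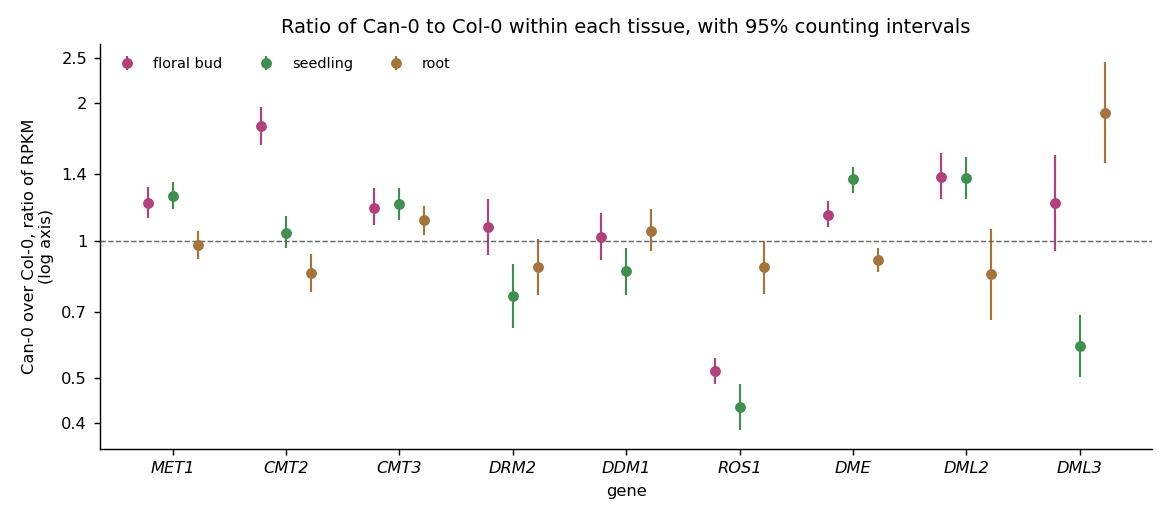
Ratio of Can-0 to Col-0 RPKM for each gene in each tissue on a log axis, with exact 95% counting intervals; the dashed line marks a ratio of 1. ROS1 is at 0.519 in floral buds and 0.432 in seedlings, CMT2 reaches 1.78 in floral buds, and DML3 is at 0.589 in seedlings and 1.90 in roots.

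Summed over genes, the methyltransferases varied less between libraries than the glycosylases. MET1, CMT2, CMT3 and DRM2 together had 50.0 and 39.2 RPKM in the Can-0 and Col-0 floral buds, 59.4 and 53.3 RPKM in the Can-0 and Col-0 seedlings, and 53.1 and 53.6 RPKM in the Can-0 and Col-0 roots. ROS1, DME, DML2 and DML3 together had 35.4 and 43.3 RPKM in the Can-0 and Col-0 floral buds, 31.1 and 32.5 RPKM in the Can-0 and Col-0 seedlings, and 20.6 and 21.6 RPKM in the Can-0 and Col-0 roots. Both root libraries were the lowest in summed glycosylases. The ratio of the sums was 1.41 and 0.905 in the Can-0 and Col-0 floral buds, 1.91 and 1.64 in the Can-0 and Col-0 seedlings, and 2.58 and 2.48 in the Can-0 and Col-0 roots, so that the Col-0 floral bud was the library in which the glycosylase sum was above the methyltransferase sum.

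The shares of the single glycosylases varied between the libraries; no test was made of these shares. ROS1 made up 36.3% and 57.3% of their summed RPKM in the Can-0 and Col-0 floral buds, 12.9% and 28.5% in the Can-0 and Col-0 seedlings, and 19.0% and 20.7% in the Can-0 and Col-0 roots. DME made up 61.9% and 65.2% in the Can-0 and Col-0 roots, where ROS1 and DML2 were low. Its own level there was 12.8 and 14.1 RPKM, with a difference of -0.13 for floral buds minus roots and of -0.10 for seedlings minus roots, neither past the threshold. DML2 made up 29.3% and 20.4% in the Can-0 and Col-0 seedlings but 7.19% and 8.10% in the Can-0 and Col-0 roots. Among the methyltransferases CMT3 had the largest share in each library, from 32.1% in the Can-0 floral bud to 45.0% in the Can-0 root. These sums weigh genes by transcript level and say nothing of enzyme activity.

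**Figure D4:**
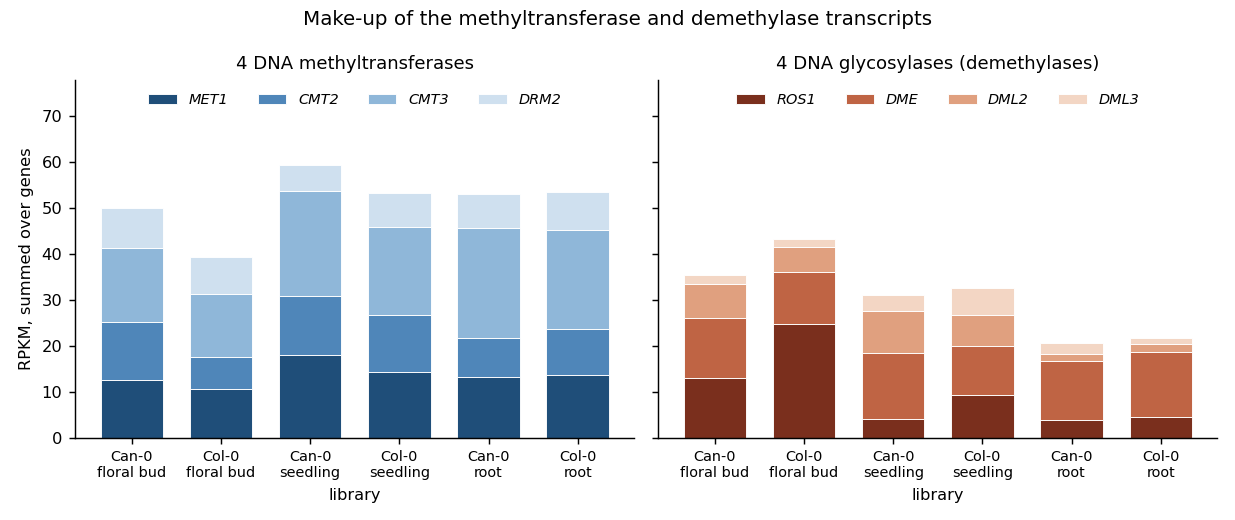
RPKM summed over the methyltransferases (left) and over the glycosylases (right) in each library, stacked by gene, on a linear axis from 0. The methyltransferase bars run from 39.2 to 59.4 RPKM, and the glycosylase bars from 20.6 RPKM in Can-0 root to 43.3 RPKM in Col-0 floral bud, where the ROS1 segment is largest.

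Across the 6 libraries ROS1 and CMT3 had the strongest relation of the 36 pairs of members, with Pearson's r of -0.99 on the log2 scale. It is a description over 6 libraries that share tissues, and both genes had been called between the same tissues. For the 3 members that span at least 1, the most similar of 14312 other genes that span at least 1 were looked up. For ROS1 these were AT4G21650 (r = 0.9990), AT2G17880 (r = 0.9950) and the F-box gene FBS2 (r = 0.9928), and 84 genes reached an r of 0.95. FBS2 had 4.99 and 8.91 RPKM in the Can-0 and Col-0 floral buds, 1.3 and 3.85 RPKM in the Can-0 and Col-0 seedlings, and 1.32 and 1.18 RPKM in the Can-0 and Col-0 roots, so its highest 3 libraries were those of ROS1, in the same order.

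For DML2 the most similar were HINT3 (r = 0.9997), a histidine triad gene, TCP4 (r = 0.9979), a transcription factor that limits cell division in leaves, and AT5G35480 (r = 0.9968), and 854 genes reached 0.95. TCP4 had 17.9 and 13.4 RPKM in the Can-0 and Col-0 floral buds and 21.4 and 14.9 RPKM in the Can-0 and Col-0 seedlings, against 3.28 and 3.58 RPKM in the Can-0 and Col-0 roots. For DML3 they were the lysine-sensitive aspartate kinase CARAB-AK-LYS (r = 0.9949), APC10 (r = 0.9897), a subunit of the anaphase-promoting complex, and AT2G30766 (r = 0.9757), and 11 genes reached 0.95. A DML2-like pattern, high in floral buds and seedlings and low in roots, was thus held by more of the tested genes than a DML3-like one.

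The members' closest relatives were mostly silent in these samples. MET2A, MET2B, MET3, CMT1 and DRM1, further methyltransferase genes, were at 0.530 RPKM or below in every library, with MET3 listed at 0 in all 6. DRM3, a catalytically inactive relative of DRM2 that assists it, had 6.05 and 7.88 RPKM in the Can-0 and Col-0 floral buds, 5.83 and 6.25 RPKM in the Can-0 and Col-0 seedlings and 5.0 and 7.38 RPKM in the Can-0 and Col-0 roots. Neither DRM3 nor DNMT2, a tRNA methyltransferase of the same family, passed between any tissues in limma, where 1 of these tests had an unadjusted p under 0.05, or with voom.

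Among the partners of MET1, VIM1 and VIM3, which bind hemimethylated CG sites and bring in MET1, were the members of their family that passed the filter; VIM2 and VIM4 are near-identical copies of each other, and their counts are uncertain. VIM3 was lower in floral buds and in seedlings than in roots, by differences of -1.25 ± 0.14 (adjusted p = 0.00219, limma) and -0.80 ± 0.14 (adjusted p = 0.00852). The first was lost without the Col-0 floral bud (adjusted p = 0.0513) and the second without either root library or the Can-0 seedling (up to 0.0776). Of 7 genes for H3K9 methylation and linker histones, 3 were higher and 0 lower in floral buds than in seedlings, with a median of 0.49. That is near the 32.8% and the median of 0.27 over all tested genes, and with median-centred libraries 0 were higher and 1 lower. The H3K9 methyltransferase SUVH6 was higher in floral buds than in roots by 0.80 ± 0.17 (adjusted p = 0.0150, limma), the 1 gene of this list that was. Its relative SUVH5 and the linker histone H1.1 were lower in seedlings than in roots, by differences of -0.78 ± 0.17 and -0.59 ± 0.17 (adjusted p = 0.0154 and 0.0387). Each of these 3 calls was lost without either root library, among others (adjusted p up to 0.118, 0.107 and 0.224). The SUVH5 and H1.1 calls were also lost with median-centred libraries, and that of SUVH5 with quantile normalization. Of the list, 4 were lower and 0 higher in seedlings than in roots, with a median of -0.49. Of all tested genes 41.0% were lower, with a median of -0.33. With median-centred libraries 1 of the list was lower and 1 higher, against 29.5% and 23.1% of all tested genes. SUVH6 shares 42.0% of its transcript length with another annotated transcript, and H1.1 shares 41.8%. The reads of both are uncertain for that. The linker histone H1.3, which is known as stress-inducible, was lower in seedlings than in roots by -2.39 ± 0.25 (adjusted p = 0.00168, limma). That call was lost with the tissue term alone. H1.3 was also the 1 gene of the 95 tested outside the members that passed between the accessions. It had 21.8 and 3.19 RPKM in the Can-0 and Col-0 floral buds, 9.90 and 1.32 RPKM in the Can-0 and Col-0 seedlings and 44.6 and 14.4 RPKM in the Can-0 and Col-0 roots (difference 2.08 ± 0.20, adjusted p = 0.0374), and did not pass when any 1 library was left out (adjusted p 0.119 to 0.513).

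Of 25 genes of RNA-directed DNA methylation, the machinery that guides DRM2, 11 were higher and 1 lower in floral buds than in seedlings, with a median of 0.51, and 12 were higher and 2 lower in floral buds than in roots, with a median of 0.51. With median-centred libraries these became 3 higher and 2 lower, with a median of 0.02, and 7 higher and 3 lower, with a median of 0.30. Of all tested genes 32.8% and 30.3% were higher in these comparisons, with medians of 0.27 and 0.02, and 16.3% and 25.6% with median-centred libraries. Under that scaling the counts of the list lie near the share of all genes. AGO9, a germline Argonaute that binds the guide RNAs, had 32.7 and 56.7 RPKM in the Can-0 and Col-0 floral buds, against 0.213 and 0.117 RPKM in the Can-0 and Col-0 seedlings and 0.304 and 0.0293 RPKM in the Can-0 and Col-0 roots. CLSY3, a remodeller that recruits RNA polymerase IV, had 14.6 and 15.1 RPKM in the Can-0 and Col-0 floral buds, against 0.339 and 0.432 RPKM in the Can-0 and Col-0 seedlings and 0.626 and 0.758 RPKM in the Can-0 and Col-0 roots. CLSY4 and CLSY2 of the same family were also higher in floral buds, by 1.51 ± 0.21 over seedlings (adjusted p = 0.00704, limma) and 0.98 ± 0.24 over roots (adjusted p = 0.0231). CLSY1 went the other way, lower in floral buds by -0.92 ± 0.16 against seedlings (adjusted p = 0.0121) and -0.71 ± 0.16 against roots (adjusted p = 0.0187), and RDM1, whose transcript overlaps that of a neighbour so that its reads are uncertain, by -0.61 ± 0.17 against roots (adjusted p = 0.0325). The AGO9 and CLSY3 calls passed without any 1 library. Those of CLSY4, CLSY2, CLSY1 and RDM1 were each lost without the Can-0 floral bud, among others, with adjusted p of up to 0.101, 0.116, 0.142 and 0.194.

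On the demethylation side, 6 of 13 partner and base excision repair genes were higher and 1 lower in floral buds than in roots, with a median of 0.16. Of all tested genes 30.3% were higher and 27.0% lower, with a median of 0.02. With median-centred libraries 5 of the 13 were higher and 3 lower, against 25.6% and 35.9% of all genes. IDM3, an alpha-crystallin domain protein of the complex that brings ROS1 to its targets, was low in roots, as DML2 was: it had 5.62 and 4.75 RPKM in the Can-0 and Col-0 floral buds and 4.33 and 4.51 RPKM in the Can-0 and Col-0 seedlings, against 0.609 and 0.644 RPKM in the Can-0 and Col-0 roots (floral buds minus roots 1.92 ± 0.17, adjusted p = 0.000952, limma; seedlings minus roots 1.74 ± 0.17, adjusted p = 0.00138). IDM2, its partner, was higher in floral buds than in seedlings by 1.29 ± 0.16 (adjusted p = 0.00486) and than in roots by 1.44 ± 0.16 (adjusted p = 0.00202), as ROS1 was. MBD7, the methyl-binding protein of that complex, and IDM1, its histone acetyltransferase, were higher in floral buds than in roots by 0.86 ± 0.21 (adjusted p = 0.0256) and 1.07 ± 0.18 (adjusted p = 0.00792). MET18, which helps load the iron-sulfur cluster of ROS1, was the gene lower in floral buds than in roots, by -0.57 ± 0.17 (adjusted p = 0.0435), and the phosphatase ZDP was lower in seedlings than in roots, by -0.61 ± 0.11 (adjusted p = 0.00838). With median-centred libraries the MBD7 and ZDP calls were lost. That of MBD7 was also lost with quantile normalization, and that of MET18 with organelle genes left out. The IDM3 and IDM2 calls passed without any 1 library. Those of MBD7 and IDM1 were lost without either floral bud library, among others (adjusted p up to 0.209 and 0.10). That of ZDP was lost without the Col-0 root (0.0627), and that of MET18 without any 1 of the 6 (up to 0.232).

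Of 8 genes that supply the methyl group, 5 were lower and 0 higher in floral buds than in roots, with a median of -0.95, and 5 were lower and 0 higher in seedlings than in roots, with a median of -1.08. Of all tested genes 27.0% were lower in the first comparison, with a median of 0.02, and 41.0% in the second, with a median of -0.33. SAHH2 differed by 1.11 and 0.30 in the same comparisons and MTHFD1 by -0.17 and -0.11, and neither passed (adjusted p from 0.0735 to 0.571, limma). The S-adenosylmethionine synthetase SAM1 had 179 and 179 RPKM in the Can-0 and Col-0 floral buds and 149 and 132 RPKM in the Can-0 and Col-0 seedlings, against 580 and 489 RPKM in the Can-0 and Col-0 roots. The synthetases MAT3 and SAM2 and SAHH1, which clears the by-product of methylation, were lower in seedlings than in roots by -1.55 ± 0.14, -1.17 ± 0.34 and -1.32 ± 0.14 (adjusted p = 0.00126, 0.0382 and 0.00167, limma). The SAM2 call was lost without either root library or the Col-0 seedling (adjusted p up to 0.231). Of 8 genes known to be silenced or set by DNA methylation only QQS and EPF2 passed the filter. QQS, which varies between accessions with its methylation, had 1.54 and 5.23 RPKM in the Can-0 and Col-0 floral buds, was listed at 0 in the Can-0 seedling and had 1.28 RPKM in the Col-0 seedling, and was listed at 0 in the Can-0 root and had 0.226 RPKM in the Col-0 root. EPF2, a stomatal signal whose promoter needs ROS1 to stay unmethylated, had 3.79 and 2.59 RPKM in the Can-0 and Col-0 floral buds and 5.43 and 5.74 RPKM in the Can-0 and Col-0 seedlings, and was listed at 0 in the Can-0 root and at 0.145 RPKM in the Col-0 root.

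**Figure D5:**
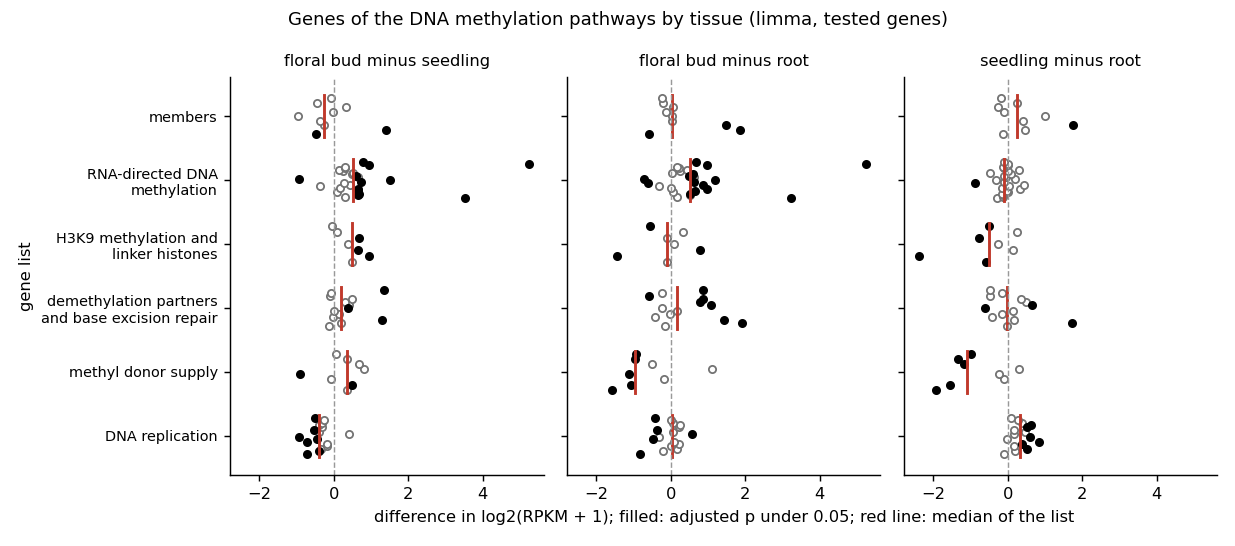
Difference in log2(RPKM + 1) between tissues for each tested gene of the members and of 5 related lists, with filled points for an adjusted p under 0.05 (limma) and a red line at each list's median. The members' medians are -0.26, 0.03 and 0.24, RNA-directed DNA methylation is at 0.51 in both comparisons with floral buds, and methyl donor supply is at -0.95 and -1.08 in the comparisons with roots.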

How the data were processed

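Each of the 6 libraries came with 1 deposited table of RPKM per gene, a unit the authors name in the file headers. The submitters' processing notes list the builds TAIR9 and TAIR10; aligner, counting rule, use of strand and the sequence to which Can-0 reads were aligned were not stated. The members and lists were chosen with earlier results of these data known.

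Mapped reads per library were recovered from the most frequent RPKM step of single-transcript genes. Each gene's reads followed from the length at which all 6 values were whole within 0.02 reads, which was found for 100% of the 20830 tested genes. Intervals and read numbers carry counting error only, because without molecular identifiers PCR copies cannot be told from separate molecules. The comparisons were fitted to log2(RPKM + 1) in limma 3.58.1, run under R 4.3.3, with terms for tissue and for accession, an empirical Bayes trend, two-sided tests and Benjamini-Hochberg adjustment at 0.05. Genes entered with 1 RPKM or more in 2 or more libraries. The spread came from 2 residual and 2.55 prior degrees of freedom, that is from how far tissue differences differ between the accessions, so a p-value measures that and not replicate plants. The fit was also run on simulated data in which a small set of genes was raised in floral buds and no other gene differed. Far more genes were called between tissues here, so that run does not measure the error of these comparisons. Symbols, gene places and promoters came from RefSeq TAIR10.1, which matched 28009 features, and copies from BLAST+ 2.17.0; no coordinate came from the deposited files.

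Named were all members; of each of 13 other lists up to 4 genes with the largest called difference, and those opposite to most; and, for members spanning at least 1, the 3 genes of highest Pearson's r. Alternatives were pseudocounts of 0.1 and 5, the filter, median centring, quantile normalization, organelle genes left out, empirical Bayes settings, model terms, each library left out and, added after seeing the data, limma's voom on recovered reads.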

Additional observations from a re-analysis of the deposited data

Results flagged for a closer look

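CMT2 went opposite ways between the accessions in different tissues: its Can-0 over Col-0 ratio was 1.78 in floral buds and 0.849 in roots, each with a counting interval that left out 1. DME had ratios of 1.14 in floral buds and 1.36 in seedlings, but 0.905 in roots. DML3 had a ratio of 0.589 in seedlings and 1.90 in roots. With 1 library of each accession in each tissue the differences between tissues were not tested.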

How the results depend on the processing

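No paired analysis was possible because every library is replicate 1, so no replicate number can be a block; the accession term already pairs the tissues within an accession, and the tissue term alone is the same fit without it. Of 644 values of members under alternatives, 561 kept their direction and their side of the threshold, 23 lost a call, 21 gained one and 39 changed sign, none of them a called difference. The counts of members called moved as follows. Between floral buds and seedlings, 2 as reported became 1 with no filter or with only the libraries of those tissues, 6 with median centring, 5 with quantile normalization, 0 with the tissue term alone and 0 to 1 without 1 library; between floral buds and roots, 3 became 5 with quantile normalization and 0 to 3 without 1 library; between seedlings and roots, 1 became 3 with median centring or quantile normalization, 2 with the tissue term alone and 1 to 2 without 1 library. Over all genes, leaving out 1 library gave 2130 to 7248 calls where 9336 were reported between floral buds and seedlings, 5801 to 11707 where 11932 were reported between floral buds and roots, 8026 to 10236 where 12398 were reported between seedlings and roots, and 0 to 51 where 200 were reported between the accessions. The 200 became 74 with a pseudocount of 5, 68 with a mean of at least 5 RPKM, 0 with no filter or without the floral bud libraries, 16 with the accession term alone and 486 with voom. Under median centring and quantile normalization the sign changed for DRM2 (-0.16 and -0.23) between floral buds and seedlings; for CMT2 (-0.17 and -0.19), DRM2 (-0.14 and -0.18) and DML3 (-0.18 and -0.20) between floral buds and roots; and for CMT3 (0.15 and 0.10), DRM2 (0.02 and 0.05), DDM1 (0.10 and 0.10) and DME (0.17 and 0.16) between seedlings and roots. Leaving out 1 library gave -0.79 to 0.04 for CMT2, -0.20 to 0.06 for DDM1 and -0.22 to 0.17 for DME between floral buds and seedlings; -0.37 to 0.46 for CMT2, -0.10 to 0.25 for DRM2, -0.34 to 0.09 for DME and -0.37 to 0.44 for DML3 between floral buds and roots; -0.32 to 0.11 for DME between seedlings and roots; and -0.08 to 0.40 for CMT2, -0.09 to 0.05 for DDM1 and -0.22 to 0.38 for DML3 between the accessions. Between the accessions CMT2 also became -0.08 without the floral bud libraries, and DML3 -0.02 without them or with a pseudocount of 5 and -0.12 with voom. Where an arm kept 1 library, it was assumed to vary like the other groups; the cause of these shifts was not tested. At 97 to 2672 reads per member, counting errors were 10.2% down to 1.93%. The spread between plants is unknown, because 1 library per group cannot show it, so the 2 could not be compared.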
